A study of Mus musculus with 6 samples.

Results

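The subunits of Polycomb repressive complex 2 (PRC2) were read in bone marrow RNA of wild-type mice and of mice without Cbx2. The set was given by gene symbol: the methyltransferase genes Ezh2 and Ezh1, the core genes Eed, Suz12, Rbbp4 and Rbbp7, and the accessory genes Jarid2, Mtf2, Phf1 and Phf19. All 10 had a row among the 22838 genes of the deposited table, and all 10 passed the filter on low values. The RNA came from tibial and femoral marrow of animals on a 129/C57BL/6 background at 3 weeks of age. Of the 6 animals, 3 were wild type, with a mean body weight of 12.3 g, and 3 were Cbx2-/-, with a mean of 4.0 g, per the labels. The labels do not describe the Cbx2 allele, and it is not stated whether littermates were used. Each animal gave 1 library, so a p-value here sets a difference between genotypes against the spread between animals.

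PRC2 places methyl groups on lysine K27 of histone H3, a mark that keeps developmental genes silent. Ezh2 and Ezh1 encode alternative catalytic subunits, Eed binds the mark and stimulates the enzyme, Suz12 holds the core together, and Rbbp4 or Rbbp7 binds histones. Jarid2 and the Polycomb-like proteins (Mtf2, Phf1 and Phf19) join the core in separate assemblies that guide it to chromatin. Cbx2 belongs to the other Polycomb complex, PRC1, whose chromobox subunits read the mark that PRC2 makes. In blood formation, Ezh2 is known for its high level in dividing precursors, including those of B cells, and Ezh1 for its expression in cells that have stopped dividing.

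Values are FPKM (fragments relative to the length of the transcript and to the mapped total of the library), so levels of different genes can be set side by side. Library sums ranged from 599601 to 741192 FPKM. The sources used here do not give total reads. From ratios among values below 0.15 FPKM, depth was roughly 0.896 to 1.24 times that of wild-type replicate 1. Cbx2-/- replicate 3 stood apart: its correlations with Cbx2-/- replicates 1 and 2 were 0.956 and 0.946. Those 2 replicates had 0.987 with each other, and wild-type pairs had 0.986 to 0.989. Skeletal muscle markers summed to 452 and 510 FPKM in Cbx2-/- replicates 1 and 2 and to 14.9 to 36.0 FPKM elsewhere. Y-linked transcripts summed to 31.1 FPKM in replicate 1 of each genotype and to at most 0.0870 FPKM elsewhere. Cbx2 itself was at 2.90, 3.83 and 2.75 FPKM with wild-type Cbx2 and at 2.11, 1.87 and 1.88 FPKM in Cbx2-/- libraries, so the groups did not overlap but transcript remained, and which part of the gene was read is not shown by these values.

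Ezh2 was the 1 subunit gene that fell past the test, while its paralog Ezh1 had overlapping groups. Of the 10 genes, 1 was lower and 0 were higher in Cbx2-/- marrow by limma (adjusted p under 0.05 over all 12006 tested genes), where 8.31% of all tested genes were lower and 8.8% were higher. The share of the set is therefore near the background. At an unadjusted p under 0.05, 4 were lower and 2 were higher, against 15.1% and 17.4% of all tested genes. These 6 were also the members whose groups did not overlap: Ezh2, Eed, Suz12 and Rbbp4 were lower in every Cbx2-/- library, and Phf1 and Phf19 higher. Among all tested genes, 39.6% had groups that did not overlap (18.2% lower and 21.4% higher in Cbx2-/- marrow). The median difference of the 10 genes was -0.13 and that of all tested genes 0.02 (log2 of FPKM + 1, Cbx2-/- minus wild type).

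**Figure D1:**
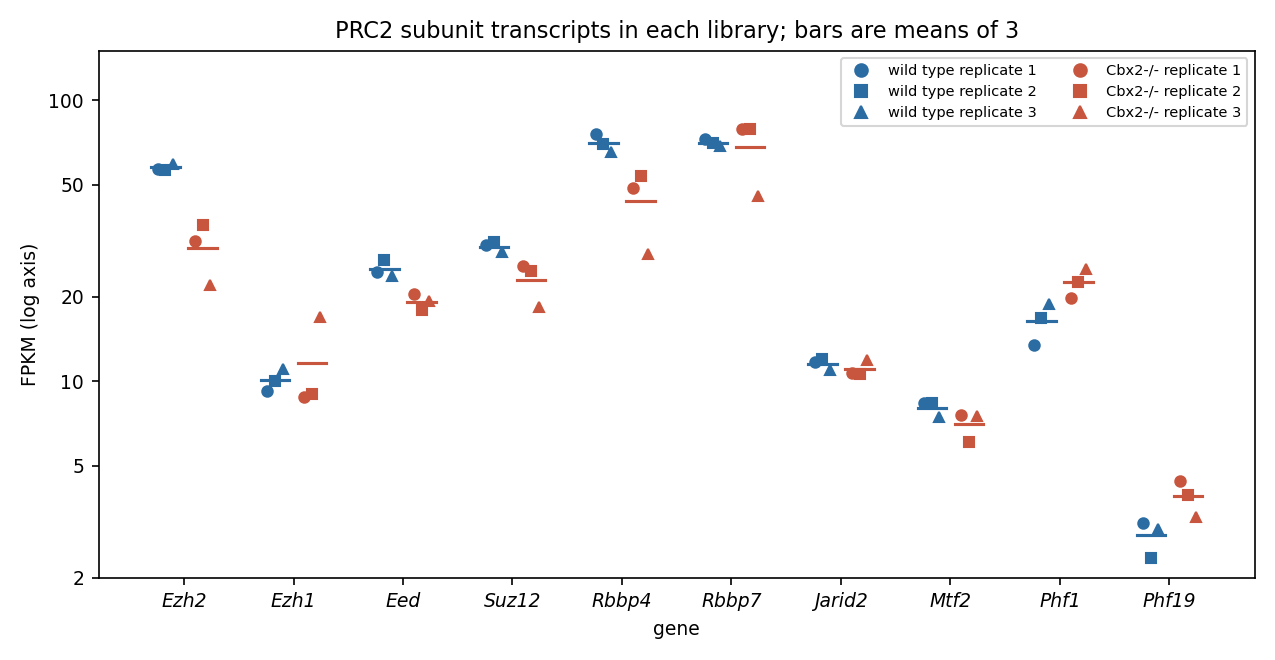
FPKM of the 10 PRC2 genes on a log axis, with a point for each library (blue wild type, red Cbx2-/-, symbol by replicate number) and a bar at each mean of 3. Ezh2 sits between 56.5 and 59.5 in wild-type and between 22.1 and 36.0 in Cbx2-/- libraries, while Ezh1 and Rbbp7 are set apart in 1 library, Cbx2-/- replicate 3.

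In wild-type marrow the core subunits other than Ezh1 had higher levels than the accessory ones. Rbbp7 and Rbbp4 were highest, at 70.7 ± 2.25 and 70.5 ± 5.35 FPKM (SD, n = 3 each), and their ranges overlapped. Ezh2 followed at 57.7 ± 1.59 FPKM, then Suz12 at 30.2 ± 1.27 and Eed at 25.0 ± 1.73 FPKM, with no overlap between neighbours. The accessory genes and Ezh1 lay lower. Phf1 was at 16.4 ± 2.72, Jarid2 at 11.6 ± 0.553, Ezh1 at 10.1 ± 0.901 and Mtf2 at 8.06 ± 0.527 FPKM, and the ranges of Jarid2 and Ezh1 overlapped. Phf19 was lowest at 2.83 ± 0.420 FPKM. Ezh2 and both Rbbp genes stood at or above the level of at least 88.4% of the tested genes, and Phf19 at or above that of 19.2%.

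Promoter stretches are shown for the catalytic and the histone-binding paralog pairs and for the genes that hold letters bound by E2F factors, the regulators of S phase genes. All 10 genes matched the RefSeq promoter set (GRCm38.p6), with 12 starts among them. Both strands of each stretch, from 250 bases before to 50 bases after a start, were searched for the E2F letters TTTCCCGC, TTTGGCGC, TTTCGCGC and TTTGCCGC, for CCAAT, and for TTTGAA, the letters of the cell cycle homology region. None of these motifs overlapped another in the stretches below, which run 5′ to 3′ along the gene, with E2F letters and CCAAT boxes (ATTGG on the other strand) in capitals. Ezh2, Ezh1, Rbbp4 and Rbbp7 are shown from 110 bases before the start to base 20 of the transcript. Suz12 and Phf19 are shown for 120 bases that begin 230 bases before it.
Ezh2, chr6:47595011-47595140, minus strand: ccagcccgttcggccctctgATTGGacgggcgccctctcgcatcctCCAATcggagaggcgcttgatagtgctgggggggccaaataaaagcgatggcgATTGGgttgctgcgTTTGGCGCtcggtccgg
Ezh1, chr11:101226444-101226573, minus strand: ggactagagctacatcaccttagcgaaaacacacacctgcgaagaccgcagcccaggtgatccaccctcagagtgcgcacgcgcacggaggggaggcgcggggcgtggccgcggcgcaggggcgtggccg
Rbbp4, chr4:129335351-129335480, minus strand: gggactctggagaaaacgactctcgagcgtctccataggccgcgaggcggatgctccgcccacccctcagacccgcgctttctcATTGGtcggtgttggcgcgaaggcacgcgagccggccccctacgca
Rbbp7, chrX:162760262-162760391, plus strand: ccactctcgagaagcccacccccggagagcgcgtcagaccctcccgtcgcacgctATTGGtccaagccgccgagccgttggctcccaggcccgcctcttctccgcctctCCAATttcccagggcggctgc
Suz12, chr11:79992876-79992995, plus strand: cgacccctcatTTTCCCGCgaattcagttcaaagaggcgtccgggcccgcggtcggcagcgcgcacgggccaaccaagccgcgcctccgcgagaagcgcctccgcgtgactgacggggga
Phf19, chr2:34914087-34914206, minus strand: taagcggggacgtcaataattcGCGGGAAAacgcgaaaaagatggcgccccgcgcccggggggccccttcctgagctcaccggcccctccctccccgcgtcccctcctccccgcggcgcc

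E2F letters were found for 3 of the 10 genes, Ezh2, Suz12 and Phf19, and in 2.26% of the 32851 stretches of the whole set. Ezh2 held them from base 4 of the transcript, beside 3 CCAAT boxes at 90, 64 and 11 bases before the RefSeq start. GENCODE places the start of Ezh2 further upstream, at 47595341, so the stretch printed for it lies inside the GENCODE gene. Ezh1 held none of the searched letters. CCAAT was found for 7 of the 10 genes and in 37.4% of all stretches, and TTTGAA for 3 genes (Eed, Mtf2 and Suz12) and in 17.9%. The genes with E2F letters did not share a direction, since Ezh2 and Suz12 were lower and Phf19 higher in every Cbx2-/- library. A match of letters is not a binding site.

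Ezh2 (chromosome 6, 47530139 to 47595341, minus strand) fell to 0.519 of its wild-type level. The wild-type libraries held 57.0, 56.5 and 59.5 FPKM of it and the Cbx2-/- libraries 31.7, 36.0 and 22.1 FPKM. The groups did not overlap, and the spread was wider in the Cbx2-/- group (SD 7.11 against 1.59 FPKM), where replicate 3 was lowest. The difference was -0.95 ± 0.20 (log2, SE), with a 95% confidence interval of -1.40 to -0.50 and a limma adjusted p of 0.0155. The call was lost when wild-type replicate 1, 2 or 3 was left out (adjusted p 0.0652, 0.0639 and 0.0685), with differences of -0.96, -0.97 and -0.93. A two-sided exact permutation test over the libraries had p = 0.1, the lowest value possible for 3 against 3. In bulk marrow, fewer cells of a type and less RNA per cell cannot be told apart.

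Ezh1 (chromosome 11, 101191115 to 101226463, minus strand) showed no common direction in the Cbx2-/- libraries. Its values were 9.22, 10.04 and 11.02 FPKM for wild type against 8.76, 9.02 and 16.96 FPKM for Cbx2-/-. Cbx2-/- replicates 1 and 2 lay just under the wild-type range and replicate 3 was above every other library, so the groups overlapped. The difference was 0.12 ± 0.24 (log2, SE; limma adjusted p = 0.774), with an interval of -0.43 to 0.68 that holds changes of both signs. Without Cbx2-/- replicate 3 it was -0.16 (limma adjusted p = 0.329). That library had the lowest Ezh2 and the highest Ezh1.

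Ezh2 was lower relative to Ezh1 in every Cbx2-/- library. The ratio of Ezh2 to Ezh1 was 6.18, 5.63 and 5.40 for wild type and 3.62, 3.99 and 1.30 for Cbx2-/-, without overlap. Ezh2 made up 86.1%, 84.9% and 84.4% of the summed FPKM of both genes in wild-type marrow and 78.3%, 79.9% and 56.6% in Cbx2-/- marrow. The sum itself was 67.8 ± 2.38 FPKM for wild type against 41.5 ± 3.11 FPKM without Cbx2 (SD, n = 3 each). The log2 ratio (of FPKM + 1) was lower by a difference of -1.08 (exact permutation p = 0.1, two-sided, adjusted 0.117 over 7 ratios), and by -0.59 without Cbx2-/- replicate 3. Its direction was the same in each comparison that left out 1 library. The exact permutation p was 0.3, 0.2 and 0.2 without wild-type replicate 1, 2 and 3, and 0.1 without any 1 of the Cbx2-/- replicates. With 3 libraries against 3, the exact permutation test cannot go below 0.1.

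**Figure D2:**
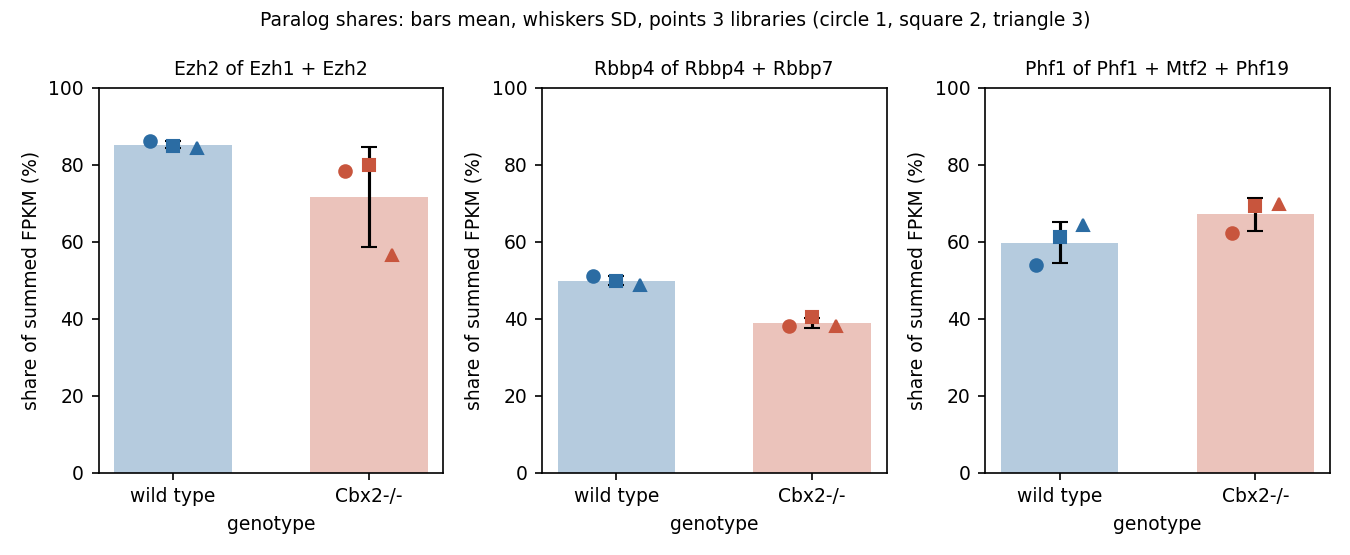
Share of summed FPKM (%) taken by Ezh2 among the catalytic genes, by Rbbp4 among the Rbbp genes and by Phf1 among the Polycomb-like genes, with bars for means, whiskers for SD and points for the 3 libraries of each genotype. The Ezh2 and Rbbp4 shares do not overlap between genotypes, and the Ezh2 share of Cbx2-/- replicate 3, 56.6%, is the lowest.

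Eed and Suz12, the obligate partners of the enzymes, were lower in every Cbx2-/- library without passing the test. Eed (chromosome 7, 89954654 to 89980983) was at 24.5, 26.9 and 23.6 FPKM in wild-type and at 20.5, 17.9 and 19.3 FPKM in Cbx2-/- libraries. The groups were separate and tight, with a difference of -0.36 ± 0.13 (log2, SE; interval -0.67 to -0.05, limma adjusted p = 0.104). Without Cbx2-/- replicate 3 its adjusted p was 0.0480, at a difference of -0.37. That fit called more genes of every kind: 2069 higher and 1719 lower over all tested genes, against 1057 and 998 with all libraries. Suz12 (chromosome 11, 79993106 to 80034123) was at 30.6, 31.2 and 28.7 FPKM in wild-type and at 25.8, 24.6 and 18.4 FPKM in Cbx2-/- libraries. Replicate 3 was again lowest, and the difference was -0.39 ± 0.16 (log2, SE; interval -0.77 to -0.01, limma adjusted p = 0.142). Without that library it was -0.25 (adjusted p = 0.111).

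Ezh2 was also lower relative to these partners. The ratio of Ezh2 to Eed was 2.33, 2.098 and 2.52 in wild-type and 1.55, 2.01 and 1.15 in Cbx2-/- libraries, and that of Ezh2 to Suz12 was 1.87, 1.81 and 2.07 against 1.23, 1.46 and 1.20. Neither ratio overlapped between the genotypes. The log2 differences were -0.59 and -0.56 (exact permutation p = 0.1 and adjusted 0.117 for each). Without Cbx2-/- replicate 3 they were smaller, at -0.39 and -0.51.

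The histone-binding paralogs showed different patterns. Rbbp4 (chromosome 4, 129307100 to 129335370, minus strand) was at 76.0, 70.1 and 65.3 FPKM in wild-type and at 48.9, 53.7 and 28.3 FPKM in Cbx2-/- libraries. The groups were separate, with a difference of -0.73 ± 0.25 (log2, SE; interval -1.29 to -0.16) that missed the threshold (limma adjusted p = 0.0818). It passed without Cbx2-/- replicate 2 (adjusted p = 0.0489, difference -0.90) and without replicate 3 (adjusted p = 0.0231, difference -0.45). Rbbp7 was at 73.0, 70.4 and 68.6 FPKM in wild-type and at 79.3, 79.3 and 45.8 FPKM in Cbx2-/- libraries. Cbx2-/- replicates 1 and 2 were above the wild-type range and replicate 3 below it, and the difference was -0.10 ± 0.23 (log2, SE; interval -0.63 to 0.44, limma adjusted p = 0.825). Without replicate 3 it was 0.16 (limma adjusted p = 0.265).

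Both genes were low in Cbx2-/- replicate 3, but their ratio there was like that of its group. The ratio of Rbbp4 to Rbbp7 was 1.04, 0.995 and 0.952 in wild-type and 0.617, 0.677 and 0.618 in Cbx2-/- libraries. These values were 0.996 ± 0.0440 and 0.638 ± 0.0346 (SD, n = 3 each), with a log2 difference of -0.63 (exact permutation p = 0.1, adjusted 0.117). The differences were -0.67 to -0.60 when 1 library was left out. Rbbp7 is on chromosome X (162760402 to 162779092), but its deposited locus is 945 kb long and spans 5 other coding genes (Reps2, Txlng, Syap1, Ctps2 and S100g), so what its FPKM was computed over is uncertain. The deposited locus of Rbbp4 is 47.8 kb long, against 28.3 kb for the gene in GENCODE, and spans Sync. Of the 50-base windows of the longest coding transcript of Rbbp7, 9.38% also occur in a transcript of another gene, Gm6382. The share found in other genes was 0.872% for Rbbp4 (Gm4800 and Gm7200) and at most 0.0249% for the other members. Both genes also serve outside PRC2, in chromatin assembly and deacetylase complexes.

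**Figure D3:**
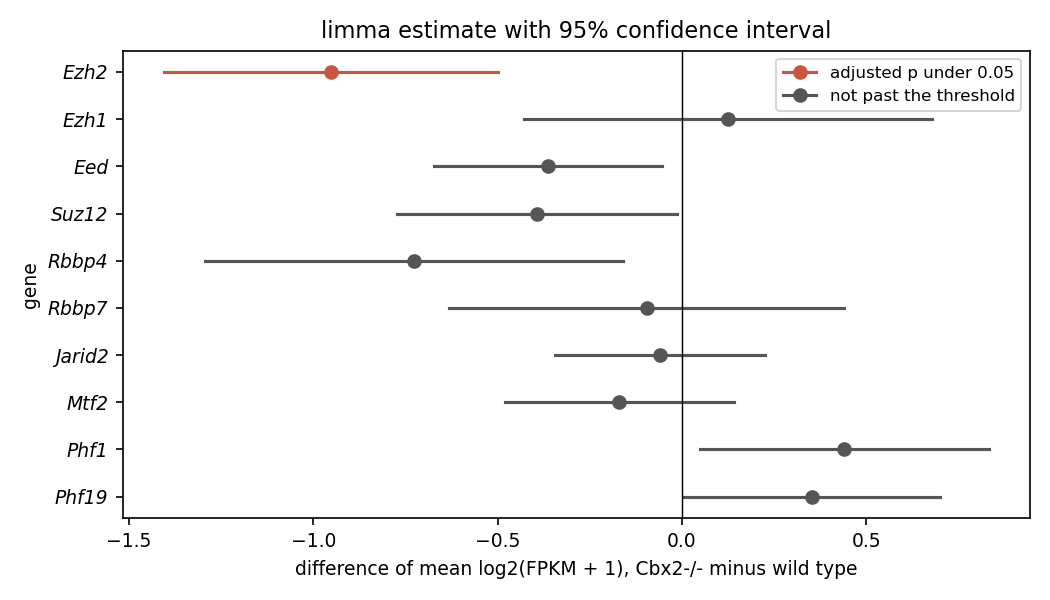
Difference of mean log2(FPKM + 1), Cbx2-/- minus wild type, for each PRC2 gene, with the 95% confidence interval from limma (3 libraries per genotype). Red marks the gene past the adjusted threshold, Ezh2, and the intervals of Ezh1, Rbbp7, Jarid2 and Mtf2 include 0.

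Among accessory subunits, Jarid2 and Mtf2 had overlapping groups. Jarid2, which links PRC2 to chromatin and stimulates it, was at 11.7, 12.01 and 10.9 FPKM in wild-type and at 10.7, 10.6 and 11.9 FPKM in Cbx2-/- libraries. The groups overlapped, and the interval of the difference was -0.34 to 0.23 (log2, limma adjusted p = 0.792). Mtf2, a Polycomb-like protein that binds DNA at CpG islands, was at 8.39, 8.35 and 7.46 FPKM and at 7.58, 6.11 and 7.55 FPKM. These groups overlapped too, with an interval of -0.48 to 0.14 (log2, limma adjusted p = 0.434) around a difference of -0.17 that was -0.08 without Cbx2-/- replicate 2.

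Phf1 and Phf19, the other Polycomb-like genes, were higher in every Cbx2-/- library without passing the test. Phf1 (chromosome 17, 26933052 to 26937908) was at 13.4, 16.9 and 18.8 FPKM in wild-type and at 19.7, 22.6 and 25.1 FPKM in Cbx2-/- libraries. The groups were separate by a small gap, and the difference was 0.44 ± 0.17 (log2, SE; interval 0.05 to 0.83, limma adjusted p = 0.115). Phf19 (chromosome 2, 34893757 to 34914026) was at 3.14, 2.35 and 2.99 FPKM and at 4.43, 3.95 and 3.30 FPKM. Its lowest Cbx2-/- value, in replicate 3, was just above the highest wild-type value, and the difference was 0.35 ± 0.15 (log2, SE; interval 0.01 to 0.70, limma adjusted p = 0.149). Without replicate 3 it passed, at 0.44 (adjusted p = 0.0442), in a fit that called 2069 of all tested genes higher, against 1057 with all libraries.

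The sum of the Polycomb-like genes was 25.0, 27.6 and 29.3 FPKM in wild-type and 31.7, 32.7 and 36.0 FPKM in Cbx2-/- libraries, in contrast to the lower sum of the catalytic genes. The ratio of Mtf2 to Phf1 was 0.624, 0.495 and 0.396 in wild-type and 0.384, 0.270 and 0.300 in Cbx2-/- libraries, and Mtf2 to Phf19 was 2.67, 3.55 and 2.49 against 1.71, 1.54 and 2.29. Neither overlapped, with log2 differences of -0.61 and -0.52 (exact permutation p = 0.1, adjusted 0.117 for each). Phf1 to Phf19 overlapped (difference 0.09, exact permutation p = 0.8, adjusted 0.8), and its sign turned without wild-type replicate 1 (-0.10) or Cbx2-/- replicate 3 (-0.08). Phf1 overlaps Cuta on the opposite strand and Mtf2 overlaps Tmed5. Every other member except Ezh1 also overlaps an annotated gene. On the opposite strand these include Gm26625 and Gm44282 for Ezh2, Gm26563 for Suz12, Gm13448 for Phf19, Sync for Rbbp4 and Txlng for Rbbp7. Eed overlaps Gm45120 on its own strand. How strand was handled in quantification is not stated, so a part of the values of all these members could come from the neighbours.

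Other genes around the mark were read from lists. Over all tested genes, 8.8% were called higher and 8.31% lower, the shares to set beside the counts of each list below. Of 5 further PRC2 partner or inhibitor genes, 3 could be tested, of which 1 rose and 0 fell. This was Epop, listed under its older symbol E130012A19Rik, whose protein joins PRC2 with Elongin. It was at 1.91, 2.48 and 2.51 FPKM in wild-type and at 4.31, 3.93 and 3.44 FPKM in Cbx2-/- libraries (difference 0.57 ± 0.14, log2, SE; limma adjusted p = 0.0306). The groups did not overlap, but the call held in only 1 of the 6 fits that left out a library, the one without Cbx2-/- replicate 3, with adjusted p from 0.0108 to 0.126. It was also lost in 5 of 12 other alternatives, among them a covariate for chromosomal sex (adjusted p = 0.0579), no filter (0.0604) and rescaling without haemoglobin (0.0808). Aebp2, a cofactor of the Jarid2 assembly, was at 15.0 ± 2.45 and 18.6 ± 2.78 FPKM (SD, n = 3 each; limma adjusted p = 0.294; difference 0.29, and 0.18 without wild-type replicate 3), and Lcorl at 1.56 ± 0.209 and 1.58 ± 0.216 FPKM. Lcor was under the filter, and the PRC2 inhibitor Ezhip, listed as AU022751, was listed at 0 in every library.

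Of 4 genes that act against the mark, 1 rose and 0 fell. Kdm6b, an H3K27 demethylase, was at 7.10, 7.18 and 7.40 FPKM in wild-type and at 10.01, 9.58 and 12.3 FPKM in Cbx2-/- libraries (difference 0.49 ± 0.14, log2, SE; limma adjusted p = 0.0433). The groups were separate, and the call was lost without any 1 of the wild-type replicates or Cbx2-/- replicate 1 (highest adjusted p 0.149). It was also lost in 8 of 13 other alternatives (highest adjusted p 0.214), among them the covariate for chromosomal sex, no filter, limma without a trend and each of 4 other scalings. Kdm6a, the X-linked demethylase, was at 7.61, 14.6 and 11.9 FPKM and at 5.19, 9.52 and 12.6 FPKM, with the lower value of each genotype in the library with Y-linked transcripts (difference -0.32, log2; limma adjusted p = 0.549). With 1 library left out, the difference ran from -0.57 without Cbx2-/- replicate 3 to -0.0039 without Cbx2-/- replicate 1. The acetyltransferase genes Ep300 and Crebbp, whose products place acetyl groups on the same residue, were at 10.9 ± 0.935 and 13.2 ± 5.68 FPKM and at 3.90 ± 0.402 and 4.57 ± 2.28 FPKM (SD, n = 3 each; limma adjusted p = 0.653 and 0.810). Cbx2-/- replicate 3 was the highest library for both, as for Ezh1, and without it the differences turned from 0.20 and 0.12 to -0.11 and -0.20 (log2).

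In PRC1, 1 of 19 genes rose and 1 fell, with a median difference of 0.02 (log2). The chromobox gene Cbx6 fell, with a difference of -1.26 ± 0.14 (log2, SE; limma adjusted p = 0.00153), a call held in all 6 fits that left out 1 library. The core gene Bmi1 was higher by 0.56 ± 0.12 (limma adjusted p = 0.0195), a call lost without any 1 of the wild-type replicates or Cbx2-/- replicate 1 and with rescaling without haemoglobin (adjusted p = 0.127). Among 20 partners of Rbbp4 and Rbbp7 outside PRC2, 0 passed limma's test in either direction, and 2 were lower and 0 higher at an unadjusted p under 0.05. The lowest adjusted p values there were those of Chd3, Chaf1a, Sin3b and Hat1 (0.140, 0.142, 0.186 and 0.286). Without Cbx2-/- replicate 3, Chd3 was lower and Sin3b higher (adjusted p = 0.00851 and 0.0208), while the differences of Chaf1a and Hat1 went from -0.62 and -0.55 to -0.31 and -0.14 (log2). Of 16 other histone H3 and DNA methyltransferase genes, 1 fell: Whsc1 (Nsd2), an H3K36 methyltransferase, was at 20.9 ± 1.69 FPKM in wild-type and at 10.97 ± 2.04 FPKM in Cbx2-/- marrow (SD, n = 3 each; limma adjusted p = 0.0107), a call lost without wild-type replicate 1 (adjusted p = 0.0578). Dot1l, Dnmt1 and Suv39h2 were lower in every Cbx2-/- library without passing (limma adjusted p = 0.121, 0.139 and 0.168), and the difference of Dnmt1 went from -0.54 to -0.30 without Cbx2-/- replicate 3.

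Genes of dividing cells were lower alongside Ezh2. Of 18 genes of G2 and mitosis, 10 fell and 0 rose, with a median difference of -0.81, and all 18 had separate groups. Among all tested genes, 8.31% were called lower and 18.2% had separate groups with lower values. Mki67, a marker of cycling cells, was at 122, 116 and 131 FPKM in wild-type and at 58.9, 59.3 and 59.2 FPKM in Cbx2-/- libraries (limma adjusted p = 0.00377). Cenpf, Cenpe and Nusap1, genes of kinetochore and spindle proteins, fell too, by 1.03, 0.78 and 1.08 on the log2 scale (limma adjusted p = 0.00246, 0.0122 and 0.0140). Between 3 and 13 of the 18 were called when 1 library was left out, with 3 called without wild-type replicate 1, 2 or 3. The call of Cenpe was lost without wild-type replicate 3 (adjusted p = 0.0544), and that of Nusap1 without wild-type replicates 1 or 2 or Cbx2-/- replicate 1 (highest adjusted p 0.0670).

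Of 20 S phase genes, 2 fell and 0 rose, with a median of -0.84, and 15 had separate groups. The number called is near the 8.31% of all tested genes called lower, while 18.2% of all tested genes had separate groups with lower values. They were Ccne2, a cyclin of S phase entry, which fell by 1.30 on the log2 scale, and E2f2, which fell by 0.78 (limma adjusted p = 0.0105 and 0.0117). Ccne2 lost its call without wild-type replicate 1 or 2, and E2f2 without any 1 of the wild-type replicates or Cbx2-/- replicate 1 (highest adjusted p 0.0525 and 0.0670). Cdc6 and Rrm2 had differences of -1.28 and -1.48 (limma adjusted p = 0.0578 and 0.0712). Both passed without Cbx2-/- replicate 2 (-1.66 and -1.90, adjusted p = 0.0137 and 0.0240) and without replicate 3 (-0.79 and -0.86, adjusted p = 0.00959 and 0.00659). The number called was 0 without wild-type replicate 1 or 2 and 9 without Cbx2-/- replicate 2 or 3.

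The order of the Cbx2-/- libraries was the same for Ezh2, for both cell cycle lists and for the erythroid and neutrophil lists. Relative to the wild-type mean, Ezh2 was at -0.84, -0.67 and -1.34 (log2 of FPKM + 1) in Cbx2-/- replicates 1, 2 and 3. The mean over the mitosis list was at -0.62, -0.58 and -1.40, and that over the S phase list at -0.64, -0.32 and -1.75. Rbbp4 was at -0.52, -0.38 and -1.28 in the same libraries. The mean over the erythroid list was at -1.65, -1.33 and -1.70, and that over the neutrophil list at 0.82, 0.91 and 0.65. In each of these, replicate 3 was lowest and replicate 2 highest. The mean over the B precursor list had another order, at -3.02, -3.28 and -2.67. The summed FPKM of the mitosis list was 1507 to 1663 in wild-type and 532 to 1065 in Cbx2-/- libraries. The part of cell division in the Ezh2 difference was not tested.

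**Figure D4:**
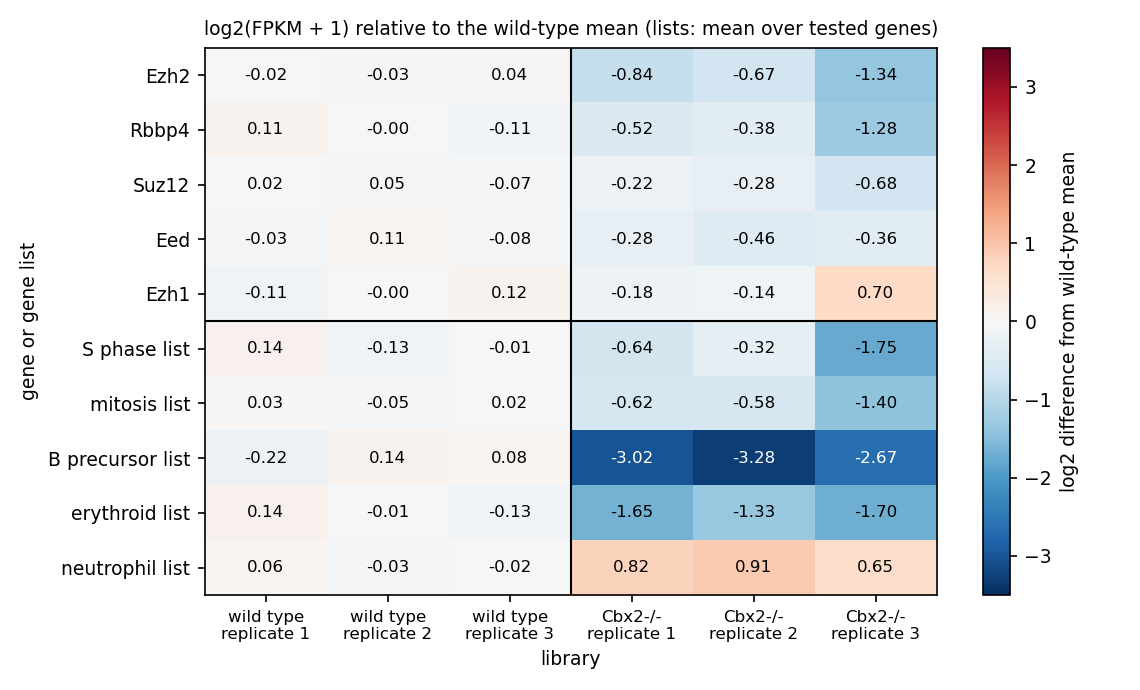
Level of 5 PRC2 genes and the mean level of 5 gene lists in each library, as log2(FPKM + 1) minus the wild-type mean, with blue for lower and red for higher. Ezh2 and the mitosis list are lowest in Cbx2-/- replicate 3, at -1.34 and -1.40, where Ezh1 is highest at 0.70.

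Markers of marrow cell types moved with the genotype as well. Of 13 B cell precursor genes, 12 fell and 0 rose, with the lowest adjusted p for Vpreb1, Dntt and Vpreb3 (differences -4.81, -4.25 and -4.82, log2; limma adjusted p = 0.000104, 0.000104 and 0.000191). Their summed level was 1040 to 1308 FPKM in wild-type and 115 to 235 FPKM in Cbx2-/- libraries, and replicate 3 was the highest of the latter, unlike for Ezh2. Of 12 erythroid genes, 10 fell and 0 rose (7 to 12 with 1 library left out), among them Trim10 and Kel (differences -2.16 and -1.61, log2; limma adjusted p = 0.00113 and 0.00145). Their sum was 3471 to 4171 FPKM in wild-type and 1522 to 2193 FPKM in Cbx2-/- libraries. Replicate 3 was the highest of the latter by this sum and the lowest by the mean of log2 values. No gene of either list was at 0 in any library. Haemoglobin genes were read as a separate list, in which 2 of 7 tested genes fell and 0 rose. Haemoglobin made up 13.9% to 17.8% of the summed FPKM of wild-type libraries. In Cbx2-/- replicates 1, 2 and 3 it made up 10.9%, 7.02% and 20.5%. The part of these cell types in the Ezh2 difference was not tested.

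Among the lists of other cells, those of neutrophils, progenitors and adipocytes held genes that rose, and that of osteoblasts genes that fell. Of 9 tested neutrophil genes, 2 rose and 0 fell (Lcn2 and Cxcr2, limma adjusted p = 0.0249 and 0.0261), with 0 called without wild-type replicate 1, 2 or 3, 1 called without Cbx2-/- replicate 1 and 9 called without Cbx2-/- replicate 3. Retnlg missed the threshold (adjusted p = 0.0609, and 0.0111 without Cbx2-/- replicate 3), and the summed level of the list was 37967 to 43111 FPKM in wild-type and 54880.1 to 84226 FPKM in Cbx2-/- libraries. Of 8 tested stem and progenitor genes, 2 rose and 0 fell: Kit rose from 8.01 ± 0.804 to 16.4 ± 3.05 FPKM and Gata2 from 5.29 ± 0.278 to 9.79 ± 0.716 FPKM (SD, n = 3 each; limma adjusted p = 0.00840 and 0.00600), calls held in all 6 fits that left out 1 library. Hoxa9 did not pass (adjusted p = 0.0749, and 0.0252 without Cbx2-/- replicate 3). Of 8 osteoblast genes, 7 fell, and of 7 tested adipocyte genes, 6 rose. Of 6 tested muscle genes, 0 passed limma's adjusted threshold, and 4 were higher at an unadjusted p under 0.05. Without Cbx2-/- replicate 3, all 6 were called higher.

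The genes whose values followed Ezh2 most closely over the 6 libraries were Ucp2, D17Wsu92e, Ckap2l, Tspo2 and Gfap, with Pearson correlations of 0.999, 0.998, 0.998, 0.997 and 0.997 on the log2 scale. The libraries fall into 2 genotypes that all these genes separate, so the correlations describe these libraries only, and 988 of the tested genes exceeded 0.9. Ckap2l, a spindle protein gene, fell by 0.71 on the log2 scale, and Tspo2, expressed in red cell precursors, by 1.47 (limma adjusted p = 0.0270 and 0.0104). Ckap2l lost its call without any 1 of the wild-type replicates or Cbx2-/- replicate 1 and with the covariate for chromosomal sex (adjusted p = 0.0503), and Tspo2 without wild-type replicate 3 (highest adjusted p 0.106 and 0.0544). Gfap fell from 12.4 to 2.38 FPKM (limma adjusted p = 0.00430). Ucp2, a mitochondrial carrier gene, and D17Wsu92e (Ilrun) had differences of -0.55 and -0.40 and did not pass (limma adjusted p = 0.109 and 0.0935), but passed without Cbx2-/- replicate 3 (adjusted p = 0.0277 and 0.0444). Of the other subunits, Rbbp4 and Suz12 had correlations of 0.952 and 0.939 with Ezh2, and Ezh1 and Phf1 had -0.540 and -0.811.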

How the data were processed

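RNA of 3 wild-type and 3 Cbx2-/- marrows was read as 50-base single-end reads from stranded poly(A) libraries, per the labels' protocols. FastQC 0.11.5, TopHat2 2.1.0, Cufflinks 2.2.1 and build mm10 are named, without roles or settings, per the submitters' processing notes. The authors deposited FPKM values per gene and library, with no counts in the table used here. A further 18 columns (confidence limits and status) were not used. Depth is unknown beyond the approximate ratios given, so no counting interval was made.

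Values were analysed as log2(FPKM + 1), which understates changes of low genes. The 12006 genes that reached 1 FPKM in 3 or more of 6 libraries were fitted with limma 3.58.1 in R 4.3.3 (mean-variance trend, two-sided, Benjamini-Hochberg over all tested genes, no block). The procedure was also run on simulated data with independent noise of equal spread in both groups. That setting does not cover an outlying library such as Cbx2-/- replicate 3, or a wider spread in 1 group. Folds are ratios of mean FPKM. Ratios of 2 genes were compared by exact permutation, adjusted over 7 ratios. Named genes are the subunits, all genes of both short lists on the mark, the 4 (cell markers: 3) lowest adjusted p of each other list, Cbx2, and the 5 named genes most correlated with Ezh2. Bone, fat, muscle and haemoglobin genes are given as counts. A gene that this rule names is not reported here. The members and lists were chosen with earlier results of these data known. Positions are from GENCODE vM21 (GRCm38), and promoters from RefSeq. Alternatives covered pseudocounts, filters, scalings, limma settings, a replicate block, chromosomal sex and left-out libraries.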

Additional observations from a re-analysis of the deposited data

How the results depend on the processing

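Ezh2 kept its direction in all 19 alternatives and its call in 16, being lost in the 3 fits without a wild-type library. The cause was not tested. Subunits called higher numbered 0 to 1 and called lower 0 to 3 when 1 library was left out. Array weights gave 1 higher and 3 lower, and leaving out both libraries with muscle transcripts gave 2 and 4, a fit in which the spread of the 1 remaining Cbx2-/- library is borrowed from the wild-type libraries. Upper-quartile scaling, quantile normalization and rescaling without haemoglobin each gave 2 lower, Rbbp4 being added (adjusted p 0.0419, 0.0436 and 0.0182). The cause was not tested. Signs turned, without a call, for Ezh1 (-0.15 with array weights; -0.16 to 0.28 with 1 library left out), Rbbp7 (0.15; -0.23 to 0.16) and Jarid2 (0.036 without the muscle libraries). The differences of Ezh1 and Rbbp7 were larger without the muscle libraries, at 0.70 and -0.62. Phf1 to Phf19 ran from -0.10 to 0.25 with 1 library left out.

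Over all genes, 367 to 2069 were higher and 475 to 1719 lower with 1 library left out. The largest counts, 2069 and 1719, came without Cbx2-/- replicate 3, against 1057 and 998 with all libraries. The Cbx2-/- libraries in that fit are those with muscle transcripts, so genes that pass only there are to be read against these counts. Array weights gave 3278 and 2684, and leaving out the muscle libraries 2047 and 2714. Rescaling without haemoglobin gave 598 higher genes (37.8% of calls, against 51.4%), and the replicate block 634. Under the block Ezh2 kept its call, and Epop, Kdm6b, Bmi1, E2f2, Lcn2, Cxcr2 and Ckap2l did not pass (adjusted p 0.0564 to 0.102). The labels tie no libraries by number. Same-numbered libraries had correlations of deviations from the group means of 0.194, -0.179 and -0.103, and both libraries numbered 1 had Y-linked transcripts, which summed to at most 0.0870 FPKM in the others. Of the genes in the context lists, 8 to 29 were higher with 1 library left out. Array weights gave 31 higher and 80 lower, and leaving out the muscle libraries 23 and 80. Phf19 had no value under the filter of 5 FPKM. The table used here holds no counts, so the limit that depth sets is unknown.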
